A study of Homo sapiens with 6 samples.

Results

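The clustered protocadherin genes on the long arm of human chromosome 5 (5q31) were described here by the YAP and TAZ ChIP-seq peaks that lie over them. The cluster was taken as chromosome 5 from 140.10 to 140.95 Mb in the genome build hg19, an interval of 850 kb, and a peak belonged to it if its midpoint fell inside these bounds. The rule used position only, though it was chosen with earlier results of these data known. Of 1389618 deposited peaks, 578 met the rule. The YAP libraries gave 141 of 392120 and 147 of 353336 peaks, and the TAZ libraries 141 of 333505 and 149 of 310657; here and below, the values of an antibody stand in the order replicate 1, replicate 2. The 1 Mb before the cluster held 771 peaks over the 4 libraries and the 1 Mb after it held 870.

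The cells were H1299, an established human line from a non-small cell lung cancer, deprived of serum for 18 hours before chromatin was prepared. The series compared 2 immunoprecipitations with an antibody against YAP and 2 with an antibody against TAZ, beside 2 input samples, all from the same line under the same treatment. Every measurement therefore describes one line in one condition. The labels did not say that replicates came from separate cultures, so each spread is that between libraries and may be technical.

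Clustered protocadherins are cadherin-like adhesion proteins of the cell surface, best known from neurons, where each cell expresses its own small combination of them. The genes stand in an alpha, a beta and a gamma group. In the alpha and gamma groups each first exon has its own promoter and is spliced to constant exons shared by the group, whereas the beta genes are single-exon genes; CTCF and cohesin are known to bring chosen promoters to distant enhancers. YAP and TAZ are transcriptional coactivators of the Hippo pathway that bind no DNA themselves and reach it mainly through TEAD factors, often beside AP-1 factors at enhancers.

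Promoters of the clustered genes carry short stretches shared within a group. They are shown because each marked 10-base word, taken whole, was found in one group of the family and in neither of the others. The sequences came from RefSeq (GRCh38.p14), a different build from that of the peaks, so no peak was placed on them. The RefSeq table held 52 promoters for 47 of the 53 protein-coding alpha, beta and gamma genes, each running from 250 bases before to 50 bases after a gene's start. Each line gives part of a promoter 5′ to 3′ on the gene's strand, with capitals marking the 10-base word found in the most promoters of that gene's group.
PCDHA1: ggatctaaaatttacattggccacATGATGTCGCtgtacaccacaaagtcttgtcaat
PCDHA2: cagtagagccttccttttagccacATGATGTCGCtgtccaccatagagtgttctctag
PCDHB2: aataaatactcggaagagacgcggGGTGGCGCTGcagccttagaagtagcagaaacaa
PCDHB3: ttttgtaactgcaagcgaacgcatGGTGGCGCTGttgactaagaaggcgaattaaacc
PCDHGA1: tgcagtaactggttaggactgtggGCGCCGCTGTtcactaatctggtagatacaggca
PCDHGB1: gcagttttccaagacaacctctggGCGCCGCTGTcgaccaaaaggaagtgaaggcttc

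The alpha word ATGATGTCGC was found, on either strand, in 8 of 13 alpha promoters and in 0.0405% of all 22199 protein-coding promoters of the table. The beta word GGTGGCGCTG was in 12 of 14 beta promoters and 0.324% of all. The gamma word GCGCCGCTGT was in 10 of 25 gamma promoters, belonging to 9 of 20 genes, and in 0.171% of all. None of the 3 words, taken whole, was found in a promoter of another group. The stretches shown from all 3 groups nonetheless share the letters CGCTG, inside the marked word or across its end. How many promoters hold these shorter letters was not counted. The words were chosen as the most shared, so their counts are a description. In the stretches above the word began 45 bases before the start of PCDHA1, 62 before PCDHA2, 60 before PCDHB2, 69 before PCDHB3, 99 before PCDHGA1 and 62 before PCDHGB1.

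Letters of the factors that recruit YAP and TAZ were also looked for on both strands. The core TEAD word GGAATG was in 9 of 52 protocadherin promoters (17.3%) against 12.2% of all protein-coding promoters. Its 9 holders were PCDHA6, PCDHA7, PCDHA12, PCDHB1, PCDHB7, PCDHB13, PCDHGA1, PCDHGB4 and PCDHGA11, so each group had 3. One stretch from each group is shown with that word in capitals, read as CATTCC where it lies on the opposite strand.
PCDHA7: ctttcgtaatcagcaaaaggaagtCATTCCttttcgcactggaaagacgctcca
PCDHB1: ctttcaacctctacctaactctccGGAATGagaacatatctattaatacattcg
PCDHGA1: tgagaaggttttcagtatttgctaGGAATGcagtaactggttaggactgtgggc

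The word of AP-1, TGANTCA, where N is any base, was in 1 protocadherin promoter, that of PCDHGA11 (1.92% against 6.15% of all). A single core word of CTCF was likewise in 1, that of PCDHB9 (1.92% against 2.52%). Sites that differ from this word were not searched for. The CTCF counts therefore describe that word only, and not how many promoters hold a CTCF site. The protocadherin promoters were poor in G and C: their median content was 40.7%, against 62.3% over all protein-coding promoters. The median rose in order from the alpha promoters (37.3%) through beta (40.8%) to gamma (47.3%). The ratio of observed to expected CpG pairs had a median of 0.628 in the family and 0.737 over all.

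The peak lists were deposited without read totals, so sequencing depth is unknown and no counting interval can be given. List lengths ran from 310657 in TAZ replicate 2 to 392120 in YAP replicate 1. The fold quoted for a peak is the authors' own ratio of ChIP to input signal, used to describe and rank peaks inside one list; its median over whole lists was 3.14 and 3.14 with YAP and 3.16 and 3.03 with TAZ.

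The protocadherin cluster held fewer and narrower peaks than the DNA on either side, in every library. Peak density in the cluster was 165.9 and 172.9 peaks per Mb with the YAP antibody and 165.9 and 175.3 with the TAZ antibody. Over both flanks together it was 197.5 and 204.5 with YAP and 210.5 and 208.0 with TAZ. The highest cluster value lay below the lowest flank value. The cluster had 0.829 times the flank density, a mean log2 ratio of -0.27 ± 0.05 (SD, n = 4), with an exact two-sided sign-flip permutation p of 0.13, the smallest that 4 libraries allow.

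The gap was wider in the share of bases under peaks. YAP peaks covered 23.0% and 21.8% of the cluster, and TAZ peaks 19.1% and 21.5%. In the flanks YAP peaks covered 34.6% and 31.7%, and TAZ peaks 32.3% and 34.9%. The ranges did not overlap, and the cluster had 0.638 times the coverage of its flanks (mean log2 ratio -0.65 ± 0.10, SD, n = 4; exact permutation p = 0.13, the smallest possible). Each flank taken alone gave nearly the same ratio, 0.641 before the cluster and 0.636 after it.

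Peaks in the cluster were also shorter. The median width of YAP peaks was 861 and 789 bp in the cluster and 1143 and 1056 bp in the flanks. That of TAZ peaks was 663 and 833 bp in the cluster and 1103 and 1084 bp in the flanks. All 4 libraries were lower in the cluster, by a mean log2 ratio of -0.49 ± 0.17 (SD, n = 4; exact permutation p = 0.13). TAZ replicate 1 had the narrowest peaks of the 4. Peaks of at least 2000 bp made up 18.4% and 18.4% of the YAP peaks of the cluster (whole lists 17.1% and 16.4%) and 15.6% and 16.8% of its TAZ peaks (whole lists 15.5% and 17.7%), close to the genome. In the flanks such peaks were more frequent, at 31.6% and 27.6% for YAP and 24.7% and 27.2% for TAZ.

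Median peak height did not follow. The median fold of YAP peaks was 3.42 and 3.25 in the cluster and 3.40 and 3.29 in the flanks. That of TAZ peaks was 3.37 and 3.04 in the cluster and 3.26 and 3.08 in the flanks. The cluster was the lower of the pair in 2 of 4 libraries. The mean log2 ratio was 0.00 ± 0.03 (SD, n = 4), with an exact permutation p of 0.875. Over the 11 tests made on the cluster, the 3 values of 0.13 became 0.458 after Benjamini-Hochberg adjustment, so none passed.

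**Figure D1:**
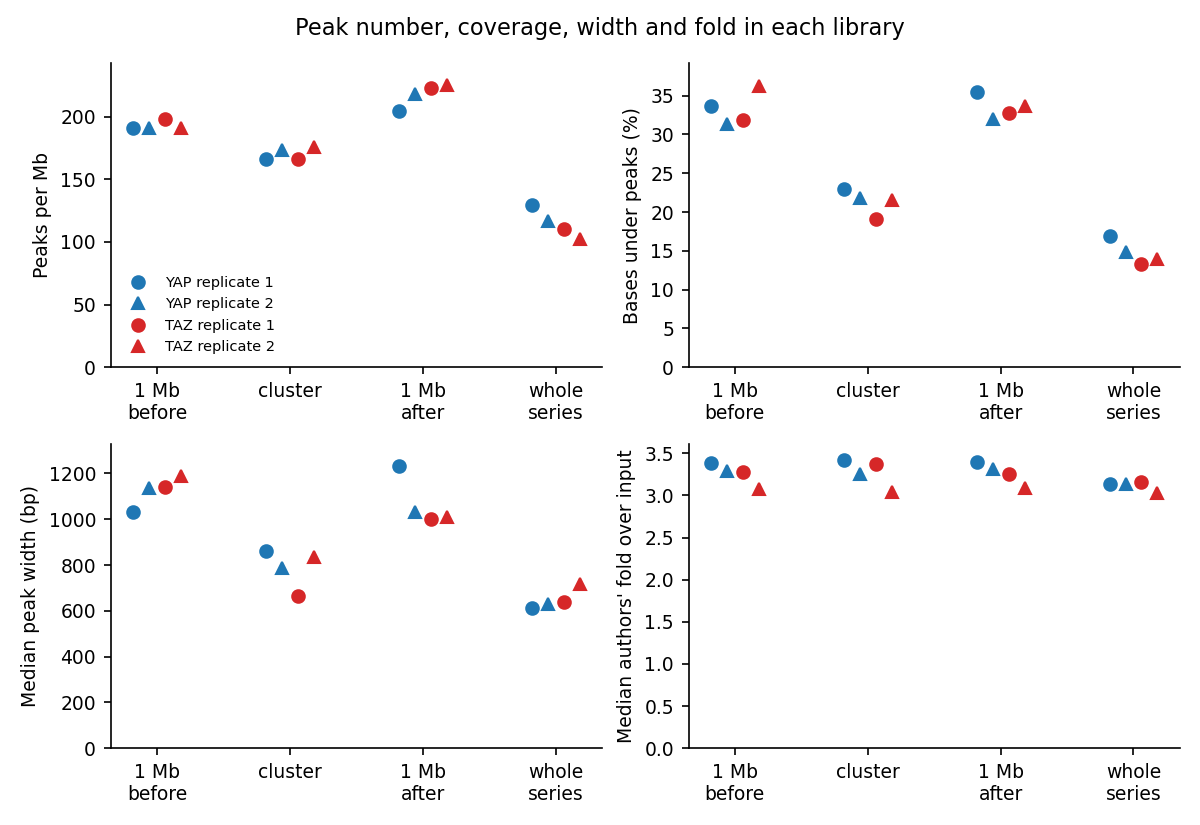
Peaks per Mb, share of bases under peaks (%), median peak width (bp) and median fold over input (ratio) in 4 panels, for the 1 Mb before the cluster, the cluster, the 1 Mb after it and the whole series. Each point is 1 library (colour for antibody, shape for replicate); the cluster's points lie below those of both flanks for density, coverage and width, at 19.1% to 23.0% of bases, and level with them for fold.

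Set against the whole genome instead of its neighbours, the cluster was rich in peaks. It had 1.49 times the peak density of the whole lists, 1.45 times the covered share and 1.21 times the median width, higher in 4 of 4 libraries for each. By mean width instead of median width, the cluster had 0.976 times the value of the whole lists and was lower in 3 of 4 libraries. Among 3364 windows of 850 kb with a peak in every library, its covered share was above 72.3% and 75.4% of windows for YAP and above 75.1% and 76.9% for TAZ. The protocadherin cluster was thus a shallow trough within a stretch of chromosome 5 dense in peaks: the 1 Mb before it was above 85.4% of windows in YAP replicate 1 and the 1 Mb after it above 87.0%. Its median fold was above 95.7% of windows in YAP replicate 1 and 97.0% in TAZ replicate 1, but only above 52.3% in TAZ replicate 2.

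Coverage differed between the gene-group parts of the cluster and, in gamma, within the part. The parts of the cluster were given round hg19 bounds from the known order of the groups, with alpha from 140.15 to 140.40 Mb, beta from 140.40 to 140.65 Mb and gamma from 140.70 to 140.90 Mb. No hg19 annotation was used, so no peak is assigned to a promoter, exon, intron or UTR. In the alpha part YAP peaks covered 15.3% and 15.7% of bases and TAZ peaks 12% and 15%. In the beta part it was 18.2% and 16.0% with YAP and 17.2% and 18.1% with TAZ. In the gamma part it was 24.9% and 26.0% with YAP and 23.8% and 28.4% with TAZ. The order from alpha through beta to gamma was the same in all 4 libraries, with gamma apart from both and the alpha and beta values of YAP replicate 2 almost equal.

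The 50 kb between the beta and gamma parts was covered by 25.4% and 22.6% with YAP and 19.4% and 21.3% with TAZ. By RefSeq order the transporter gene SLC25A2 and the TFIID subunit gene TAF7 lie inside the run of protocadherin genes. Order alone does not place them in this 50 kb window. The outermost 50 kb before alpha were covered more than any of these parts, and the outermost 50 kb after gamma were close to the gamma part for TAZ and above it for YAP. Before alpha, coverage was 56.8% and 49.1% with YAP against 36.6% and 35.0% with TAZ. After gamma it was 42.1% and 36.0% with YAP against 26.8% and 30.4% with TAZ. In both places YAP was above TAZ without overlap. Of the 850 kb windows over the genome, 71.5% had that order, but the share among windows of 50 kb was not computed. By RefSeq order the genes next before the protocadherin genes are ZMAT2 and the histidyl-tRNA synthetase genes HARS2 and HARS1. Next after them are the formin gene DIAPH1 and the histone deacetylase gene HDAC3. Order alone does not show whether any of these neighbours reaches into the hg19 bounds used here, and so into the outermost 50 kb.

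**Figure D2:**
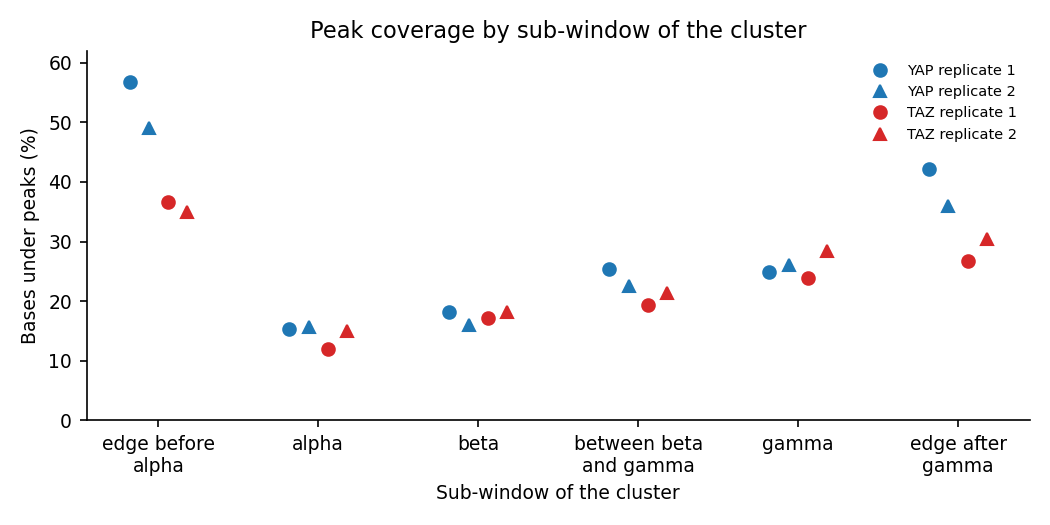
Share of bases under peaks (%) in the 6 consecutive parts of the cluster, with 1 point per library (colour for antibody, shape for replicate). Among the 3 gene-group parts alpha is lowest and gamma highest in all 4 libraries, while the 50 kb before alpha reach 56.8% in YAP replicate 1.

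Bins of 50 kb placed the steps. The median bin, as the mean over 4 libraries, was covered by 16.1% inside the cluster, 29.9% before it and 31.4% after it. Bins under 15% numbered 5 of 17 in the cluster, 2 of 20 before and 0 of 20 after. Coverage dropped from 44.4% in the first cluster bin to 11.8% in the next, at the start of the alpha part. Its lowest point, 8.56%, was the first bin of the gamma part, from 140.70 to 140.75 Mb, where single libraries ran from 5.66% to 11.4%. Its highest point, 46.9%, was in the same part, from 140.80 to 140.85 Mb, where the 4 libraries differed little (44.8% to 47.8%). The gamma part thus held both the lowest and the highest bin of the cluster.

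**Figure D3:**
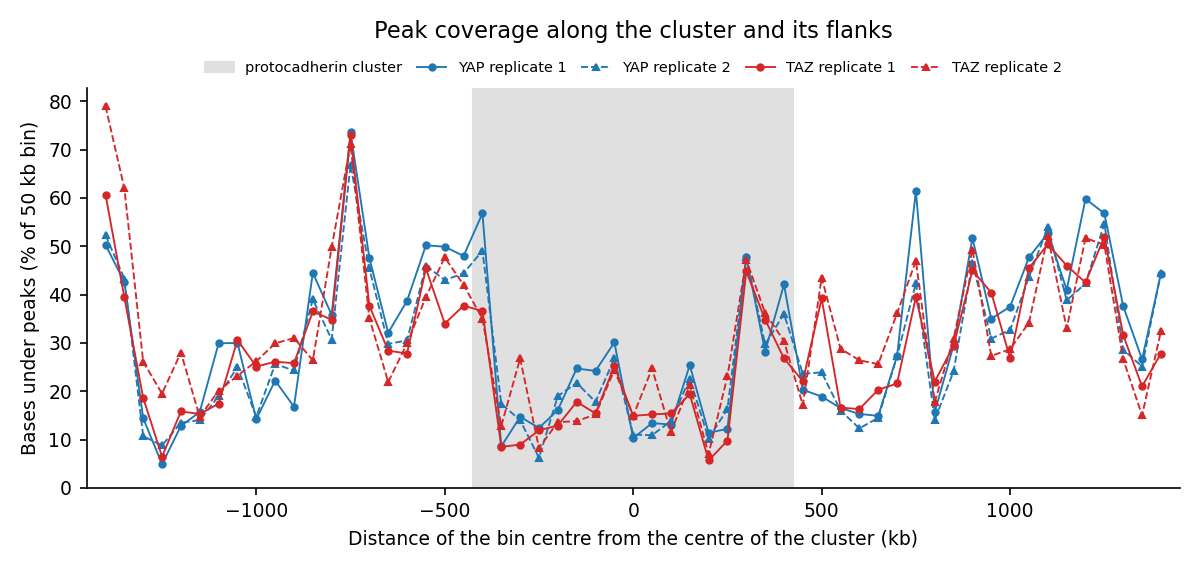
Share of bases under peaks (%) in bins of 50 kb against the distance of the bin centre from the centre of the cluster (kb), 1 line per library, with the cluster shaded. All 4 lines drop inside the shaded interval, to a mean of 8.56% at the lowest bin, and rise to a mean of 46.9% in the gamma part.

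Long empty stretches were more frequent in the cluster. Gaps of at least 10 kb with no peak of the library made up 26.8% and 19.2% of the cluster for YAP and 23.9% and 19.7% for TAZ. In the flanks these shares ran from 4.09% to 11.6%, all below the cluster's lowest. The cluster had 4 stretches of at least 10 kb without a peak in any library, together 5.62% of its length, against 1 stretch (1.47%) before it and 2 (2.16%) after it. The longest in the cluster was chr5:140413653-140427363, 13711 bp near the start of the beta part. Bases under a peak of all 4 libraries made up 10.8% of the cluster and 19.9% and 19.2% of the flanks before and after. Within the cluster they made up 5.17% of the alpha part, 9.15% of beta and 14.2% of gamma.

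YAP and TAZ had almost the same number of peaks over the protocadherin genes. The YAP libraries averaged 144 ± 4.24 peaks and the TAZ libraries 145 ± 5.66 (SD, n = 2 each; exact two-sided permutation p = 1.0, where 0.33 is the smallest that 2 against 2 allows). This count changed sign with the threshold: at a q-value of at most 0.01 YAP had 26.0 more peaks than TAZ. In the genome as a whole the YAP lists were longer, and in 62.3% of the 3364 windows both YAP libraries had more peaks than both TAZ libraries, against 5.08% the other way; in the cluster the antibodies overlapped. As a share of each library's own list, the cluster took 0.0360% and 0.0416% of YAP peaks but 0.0423% and 0.0480% of TAZ peaks. These did not overlap (2 against 2, exact permutation p = 0.33). Over all windows, TAZ was the higher in this way in 23.0% and YAP in 36.9%. At a q-value of at most 0.01, where YAP had more cluster peaks, the mean share of the list was still higher for TAZ. The YAP minus TAZ difference in that share was -0.00454 percentage points (2 against 2, exact permutation p = 0.667).

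The covered share went the other way, with YAP the higher. The YAP libraries covered 22.4 ± 0.879% and the TAZ libraries 20.3 ± 1.75% (SD, n = 2 each), without overlap and with an exact permutation p of 0.33. YAP was higher without overlap in 71.5% of all windows and TAZ in 2.05%, so the cluster was like most of the genome in this. The difference of 2.11 percentage points fell to 0.552 with the outer 50 kb left off each end, where the exact permutation p was 1.0 (2 against 2), and to 0.876 without TAZ replicate 1. Median width was 825 ± 50.9 bp for YAP and 748 ± 120.2 bp for TAZ, and median fold 3.34 ± 0.123 and 3.20 ± 0.231 (n = 2 each); both overlapped, with exact permutation p of 0.667. Against the flanks, the mean log2 ratio of covered share was -0.73 for TAZ and -0.56 for YAP. That difference of 0.17 had an exact permutation p of 0.33 (2 against 2), and the one in peak density, 0.05, had 0.667. With the outer 50 kb left off each end, the difference in covered share fell to 0.03 (exact permutation p = 0.667). None of the 11 adjusted values was below 0.458.

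Merging the peaks of all 4 libraries wherever they overlapped by at least 1 bp gave 187 regions in the cluster. Regions with a peak in every library numbered 90 (48.1%), beside a background of 39.2% of all 452943 merged regions and 66.2% of the 423 flank regions. Regions with peaks of both YAP libraries and no TAZ library numbered 14 (7.49%), near the background of 6.87%, whereas the flanks had 6 of 423 (1.42%). Regions with peaks of both TAZ libraries and no YAP library numbered 6 (3.21%), beside a background of 1.44% and 3.31% in the flanks. The other 77 regions had peaks in further combinations, and 37 of those were in 1 library only (19.8%, background 22.4%), 19 of them in TAZ replicate 2. Beside its flanks the cluster thus had a lower share of regions found in every library, though above the background, and a share found by YAP alone that was near the background while that of the flanks lay below it. With peaks of a fold of at least 4 only, both contrasts with the flanks turned, but on very few regions. Then 1 of 49 cluster regions (2.04%) and 2 of 143 flank regions (1.40%) were in every library. YAP without TAZ was found in 2 of the 49 (4.08%) and 8 of the 143 (5.59%). Both contrasts kept their direction in every other setting tried. These shares were not tested, since regions of one library are not replicates.

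Width differed too between these sets of regions. The median region was 1010 bp wide in the cluster, 1514 bp in the flanks and 788 bp over the whole series. Among regions of at least 1000 bp, 71.9% in the cluster, 81.8% in the flanks and 65.3% overall had a peak in every library. Among regions under 500 bp these shares were 14.0%, 27.4% and 11.5%, so the cluster lay between flanks and genome at both widths. Regions with YAP peaks and no TAZ peak had a median width of 615.5 bp and those in every library 1740 bp. By part, 20 of 52 regions were found in every library in alpha (38.5%), 28 of 55 in beta (50.9%) and 21 of 46 in gamma (45.7%). Of the 14 YAP regions without TAZ, 6 lay in alpha, 3 in beta and 2 in gamma. The class sizes changed when a library was left out, which also loosened the classes, since a single list then stood for that antibody. Without TAZ replicate 1, 24 regions had YAP peaks and no TAZ peak and 25 the reverse. Without TAZ replicate 2 there were 24 and 16, and without YAP replicate 2 there were 22 and 10. These rises therefore do not measure how much the classes depended on a particular library.

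**Figure D4:**
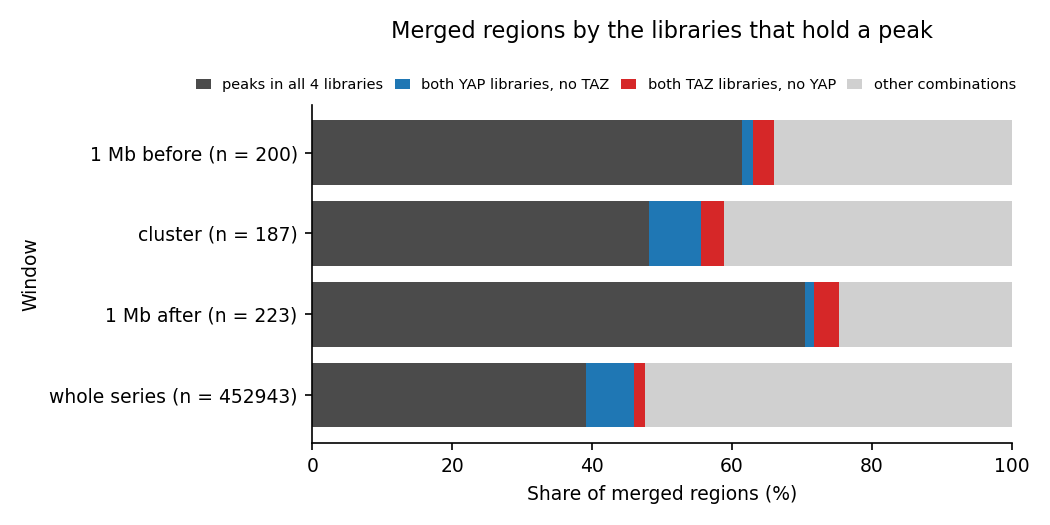
Share of merged regions (%) by the libraries that hold a peak, as stacked bars for the 1 Mb before the cluster, the cluster, the 1 Mb after it and the whole series, with the number of regions beside each. The dark part, peaks in all 4 libraries, is 48.1% in the cluster against 61.5% and 70.4% on its sides, and the blue part, YAP without TAZ, is 7.49% against 1.5% and 1.35%.

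Peaks of the cluster overlapped best between the YAP libraries. The Jaccard index, the bases under peaks of both libraries divided by those under either, was 0.690 for the YAP pair and 0.469 for the TAZ pair. The 4 pairs that crossed antibodies lay between 0.493 and 0.563, all above the TAZ pair. In the flanks the YAP pair had 0.730, the TAZ pair 0.561 and the crossed pairs 0.571 to 0.655. Over the whole series the YAP pair had 0.612, the TAZ pair 0.494 and the crossed pairs 0.495 to 0.540. The order was thus not particular to the cluster. The alpha part was the least shared, at 0.603 for YAP and 0.317 for TAZ. The 4 lists may have been called against a common input, whose part in these overlaps was not tested.

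Strong peaks, those among the 20000 with the highest −log10 q of their library, took a share of the cluster that lay above the background in 2 libraries and below it in the other two. For YAP they numbered 6 and 11, or 4.26% and 7.48% of the cluster's peaks, against backgrounds of 5.10% and 5.66%. For TAZ they numbered 17 and 6, or 12.1% and 4.03%, against 6.00% and 6.44%. TAZ replicate 1 stood highest and its partner TAZ replicate 2 lowest, so the replicates of one antibody differed more than the antibodies. Folds of 4 or more were found at 18 and 14 YAP peaks of the cluster (12.8% and 9.52%, background 9.22% and 7.52%) and at 25 and 4 TAZ peaks (17.7% and 2.68%, background 9.68% and 5.60%). Here too the TAZ replicates lay on either side of both YAP libraries. In the flanks, strong peaks made up 7.09% and 7.58% of YAP peaks and 8.55% and 5.53% of TAZ peaks. Folds of 4 or more made up 15.9% and 13.0% of YAP peaks and 12.1% and 6.25% of TAZ peaks there. In both shares the cluster lay below its flanks in every library except TAZ replicate 1, though only narrowly for the strong peaks of YAP replicate 2.

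Of the 187 regions, 3 were strong in both YAP libraries (1.60%, background 0.961%) and 1 in both TAZ libraries (0.535%, background 0.820%). The same 3 regions were the ones with a fold of at least 4 in both YAP libraries, against a background of 1.20% and 13 of 423 flank regions (3.07%). One of them, chr5:140702616-140703229 at the start of the gamma part, was the only cluster region with a fold of at least 4 in all 4 libraries. The background of that call was 0.0943%, and 2 of 423 flank regions met it. It was also the only one with such folds in both TAZ libraries (0.535%, background 0.716%). Its folds were 4.80 and 4.66 with YAP and 4.01 and 4.76 with TAZ. The 614 bp region lay in the 50 kb bin with the lowest coverage of the cluster.

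The other YAP-strong regions differed in what TAZ showed there. At chr5:140537539-140539777, in the beta part, the folds were 4.26 and 4.46 with YAP and 3.36 and 3.30 with TAZ; by −log10 q its peaks stood in the top 4.67% and 3.70% of the YAP lists and the top 39.1% and 36.1% of the TAZ lists. At chr5:140341397-140341799, in the alpha part, the folds were 4.73 and 4.91 for YAP and no TAZ peak was listed. The nearest TAZ peak was 3367 bp away in TAZ replicate 1 and 4228 bp away in TAZ replicate 2. The TAZ-strong region, chr5:140225802-140226273 in alpha, had folds of 6.21 and 3.93 for TAZ and 3.32 and 3.59 for YAP. Its peaks stood in the top 0.0843% and 5.66% of the TAZ lists and the top 32.2% and 16.5% of the YAP lists, so it ranked far higher in TAZ replicate 1 than in any other library.

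Of the regions found in every library, the 8 best by summed rank included the 614 bp region and this last one. At chr5:140840799-140841865 in gamma, the folds were 4.80 and 3.86 with YAP and 4.94 and 3.43 with TAZ. At chr5:140638980-140639507, near the end of beta, they were 4.22 and 3.70 with YAP and 4.46 and 2.97 with TAZ. The first ranked in the top 1.28% and 1.23% of the replicate 1 lists of YAP and TAZ, but in the top 11.7% and 22.5% of the replicate 2 lists. At chr5:140439147-140440350 in beta, the folds were 4.29 and 3.95 with YAP and 3.85 and 3.25 with TAZ, ranking in the top 5.72% and 7.22% of the YAP lists and the top 13.8% and 29.7% of the TAZ lists. At chr5:140519326-140519852, also in beta, they were 3.72 and 3.82 with YAP and 4.22 and 3.12 with TAZ. The last 2 of the 8 were wider. The region chr5:140320158-140324059 in alpha had 3.49 and 3.89 with YAP and 3.99 and 3.56 with TAZ. The region chr5:140923520-140928423, after gamma, had 3.31 and 3.98 with YAP and 4.20 and 3.56 with TAZ.

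**Figure D5:**
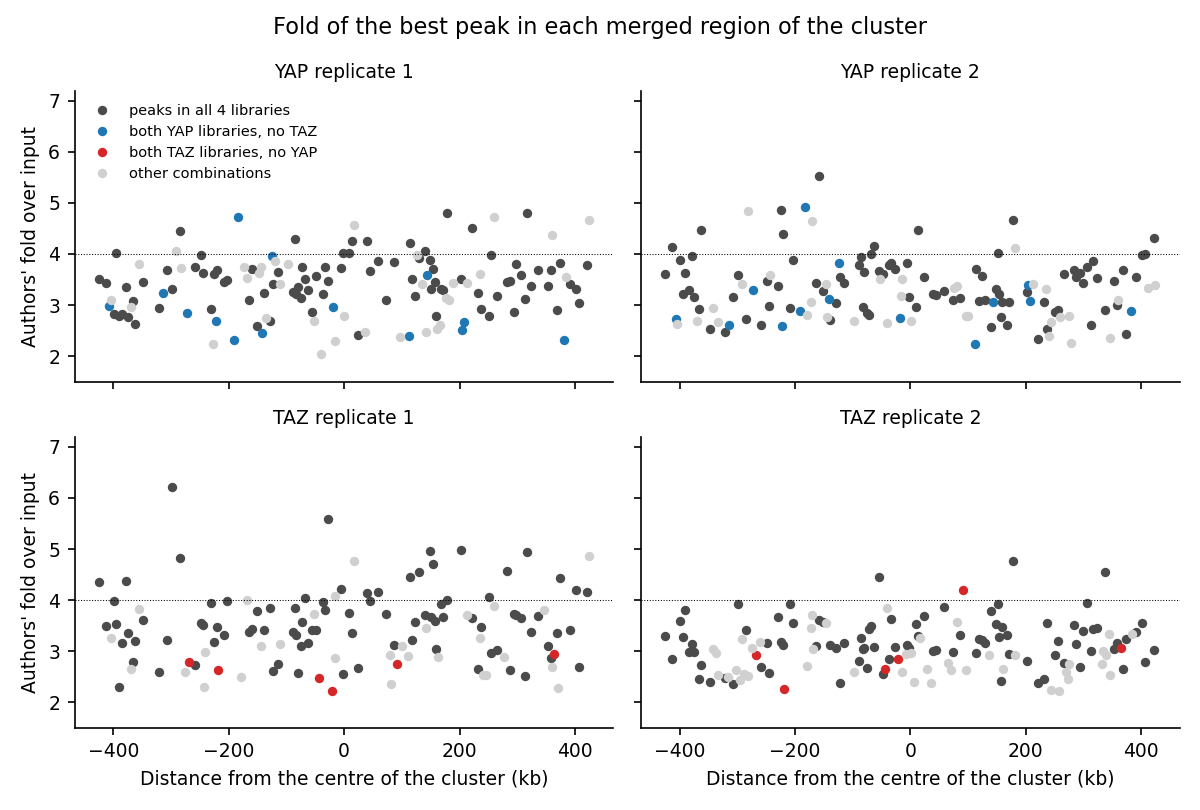
Fold over input (ratio) of the best peak in each merged region of the cluster against distance from the centre of the cluster (kb), 1 panel per library, coloured by which libraries hold a peak; the axis starts above 0 and the dotted line marks a fold of 4. The highest point is 6.21, in TAZ replicate 1, and TAZ replicate 2 has few points above the line.

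Regions found by one antibody alone were mostly low. After chr5:140341397-140341799, the YAP regions without TAZ that ranked highest were chr5:140400209-140400571 (folds 3.96 and 3.83), chr5:140251815-140253614 (2.85 and 3.30), chr5:140668585-140668974 (3.58 and 3.05) and chr5:140728587-140728989 (2.52 and 3.39). Over all 14 such regions the median fold was 2.77 in YAP replicate 1 and 2.97 in YAP replicate 2, against 3.46 and 3.43 in the regions found in every library. The TAZ regions without YAP ranked low within their lists. The best of them was chr5:140615606-140616386 in beta, with folds of 2.75 and 4.19, and its height came from TAZ replicate 2. The next were chr5:140887281-140891074 (2.95 and 3.07), chr5:140256223-140257181 (2.78 and 2.93), chr5:140502964-140503870 (2.23 and 2.84) and chr5:140481019-140482391 (2.48 and 2.65).

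The distance from a one-antibody region to the nearest peak of the other antibody ran from 42 to 9420 bp for the 14 YAP regions, with a median of 1495.5 bp. It ran from 1094 to 4705 bp for the 6 TAZ regions, with a median of 1522.5 bp. Distances from other positions of the cluster were not computed, so these describe the spacing of peaks there and no more.

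Broad merged regions were placed toward the ends of the cluster. Regions of at least 10 kb numbered 4 of 187 (2.14%), near the background of 1.47% and the 7 of 423 in the flanks (1.65%). The widest, chr5:140091822-140108989, spanned 17168 bp across the outer bound before alpha, with 8990 bp inside. This region joined 2 and 4 peaks of YAP and 5 and 4 peaks of TAZ. Its widest single peak was 13513 and 4591 bp with YAP and 3857 and 6236 bp with TAZ. The gamma part had chr5:140825967-140836658 (10692 bp), which was a single peak in each YAP library but split into 4 peaks in TAZ replicate 1 and 2 in TAZ replicate 2. Beside it, chr5:140842891-140853559 was 1 unbroken peak in every library, 9674 and 9611 bp long for YAP and 10632 and 9752 bp for TAZ. Its folds were 3.38, 3.52, 3.37 and 3.46, a domain that every library called as one. The fourth, chr5:140910727-140922186 (11460 bp), lay after gamma.

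Alpha and beta held nothing as wide. The widest region of alpha, chr5:140153102-140157003, was 3902 bp, the same width as chr5:140320158-140324059, and had no peak of TAZ replicate 2; its folds were 2.97, 2.68 and 2.66 in the other libraries. The widest of beta, chr5:140580766-140585322, was 4557 bp, with folds of 3.87, 3.27, 4.15 and 3.87.

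At the bounds of the cluster, the last region outside was chr5:140086376-140090381, with folds of 4.68, 3.77, 4.36 and 3.97, and the first inside was the 17168 bp merged region. At the far end, the last region inside was chr5:140949020-140949433, found in 3 libraries with folds of 4.66, 3.39 and 4.86, and the first outside was chr5:140952014-140953647, with 3.59, 3.88, 2.91 and 2.43. With bounds drawn 50 kb further in on each side, density, coverage and width were still lower than in the flanks in all 4 libraries.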

How the data were processed

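ChIP-seq peak lists of 2 YAP and 2 TAZ libraries from H1299 cells were used; the 2 input samples entered only through peak calling. The tools named in the submitters' processing notes were MACS2, Bowtie2, cutadapt and SAMtools, and the build hg19; which versions and parameters were used is not given in the sources used here. Broad peaks of each library were deposited by the authors. Peak names inside the deposited lists gave 1 common input, list names a different one per replicate number, so the input used is unsettled. The deposited fold is the authors' ratio of ChIP to input signal over a peak. The peak caller's −log10 q and −log10 p were also deposited, with a smallest −log10 q of 1.00 to 1.02. The deposited score was not used. Lists hold no read totals, so depth is unknown; a deeper library lists more peaks.

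Coordinates were converted to count from 1. Peaks were assigned by midpoint, covered shares by bases clipped to the window, and regions were peaks of all libraries merged at an overlap of at least 1 bp; a region's fold is that of its peak with the highest −log10 q. Strong peaks were the 20000 with the highest −log10 q on chromosomes 1 to 22 and X. Cluster and flanks were compared by exact sign-flip permutation tests over 4 libraries, and YAP and TAZ by exact permutation tests of 2 against 2, with Benjamini-Hochberg adjustment over 11 tests (Python 3.11.15, pandas 2.3.3, NumPy 2.4.6, SciPy 1.17.1); the code was tested on simulated data. Named regions were the 8 found in every library with the lowest summed rank, the 5 best found by each antibody alone, the widest of each gene-group part, the longest empty stretch and those strong in both libraries of an antibody. The members and lists were chosen with earlier results of these data known. Alternatives were stricter q-value and fold thresholds, equal list lengths, other bounds and flanks, other merging, other numbers of strong peaks and each library left out.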

Additional observations from a re-analysis of the deposited data

How the results depend on the processing

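Without read totals, differences in depth cannot be told apart from differences in peak number, and the 2 libraries per antibody allow no p below 0.33. As means over libraries, the lower density, coverage and width of the cluster against its flanks kept their direction in all 12 alternatives each. The mean log2 ratios were -0.63 to -0.18, -1.12 to -0.61 and -0.64 to -0.40. At a fold of at least 4, density and width were not lower in every library (exact sign-flip permutation p = 0.25 each). TAZ replicate 1 then had the denser peaks in the cluster, with 25 in its 850 kb and 51 in both flanks of 1 Mb. The median fold, 0.00383 on the log2 scale, turned to -0.00465 with narrower bounds and -0.00163 with flanks of 500 kb, and ran from -0.00983 to 0.0119 with a library left out. The YAP minus TAZ difference in number of cluster peaks, -1, became 26.0 at a q-value of at most 0.01 and 1.5 at a fold of at least 4, and ran from -5.00 to 3.00 with a library left out. In share of the list, the difference kept its sign at that q-value, at -0.00454 percentage points. At a fold of at least 4 the difference in median width was -28.2 bp, in median fold -0.0757 and in share of the list 0.000996 percentage points, all 3 opposite in sign to the reported ones. With a library left out, that in width ran from -8.00 to 162 bp and that in fold from -0.0293 to 0.297. The difference in covered share, 2.11 percentage points, was positive in all 10 alternatives but ran from 0.184 to 5.77, and was 0.552 with narrower bounds, where the antibodies overlapped.

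Regions found in every library fell from 90 to 1 at a fold of at least 4. YAP regions without TAZ changed from 14 to 2 at that fold and to 8 with lists of equal length, and ran from 17 to 24 with a library left out. TAZ regions without YAP changed from 6 to 1 at a q-value of at most 0.01 and to 0 at a fold of at least 4, and ran from 8 to 25 with a library left out. Mean strong peaks in the cluster were 2.50 for YAP and 3.00 for TAZ with 5000 per library and 26.0 and 29.0 with 50000, in place of 8.50 and 11.5. The cause of these changes was not tested, apart from the smaller number of peaks or libraries that each setting uses.

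Replicate numbers were shared across antibodies, but the labels do not say that same-numbered libraries belong together. List names gave a different input per replicate number, so same-numbered libraries may share an input, which is unsettled. The differences between replicates 1 and 2 correlated between antibodies at r = 0.24 over 52470 bins of 50 kb, which are not independent. With the number as a replicate block the differences were the same, -1 in number and 2.11 percentage points in covered share, and an exact permutation p over 2 pairs cannot go below 0.5.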
